A study of Mus musculus with 9 samples.

Results

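The subcortical maternal complex of the oocyte and its relatives in the Nlrp family were followed in mouse ESCs by RNA-seq. The set holds 10 genes, a list of names given by what the products do in the oocyte, with no measured value in the rule. The list was chosen with earlier results of these data known. It consists of the NLRP family genes Nlrp2, Nlrp4f, Nlrp5, and Nlrp14, the complex genes Ooep, Khdc3, Tle6, Padi6, and Zbed3, and the oocyte importin gene Kpna7. Of the 25965 genes with a deposited value, 9 carry the symbol of a member, and Khdc3 was added under its older name 2410004A20Rik, which has the same place on the + strand of chromosome 9.

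The cells were E14 ESCs, one established line of 129/Ola background, grown without feeders in serum and LIF. They received control, Dppa2, or Dppa4 siRNA at 0 and 48 h and were harvested at 96 h (4 d). By the study's account the knockdowns were made in ESCs that carry the transgenes MERVL::tdTomato and Zscan4c::eGFP, fluorescent reporters of the 2C-like state, in every group including control, which the sample labels do not mention. Each siRNA was a commercial pool, so the siRNAs in it cannot be told apart. Each treatment has 3 libraries, A, B, and C, which the study calls biological replicates. The labels do not say whether they came from separate cultures, and p-values measure the spread between these libraries.

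Eggs and early embryos hold a large protein assembly under the plasma membrane, built around NLRP5 (also called MATER), OOEP (FLOPED), TLE6, and KHDC3 (FILIA). Loss of NLRP5, OOEP, or TLE6 in the mother stops the embryo soon after fertilization, and PADI6 is needed for the fibrous lattices that fill the egg cytoplasm. The proteins are stored in the egg, and their genes are transcribed mainly while the oocyte grows. Dppa2 and Dppa4 encode paired DNA-binding proteins of pluripotent cells, and the comparison asks which of these maternal genes depend on them in ESCs.

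The sequences below show what sets the counting and the starts of these genes apart. Reads of Nlrp4f, which gives the main result, can be confused with those of its close relatives, because 5.95% of its 50-base stretches occur in another annotated gene. The longest run shared with the pseudogene Nlrp4g has 96 bases and the longest run shared with Gm47180 has 104, and both lie in the coding part of Nlrp4f (GENCODE, GRCm38). They are given in the orientation of the transcript, with no letters in capitals.

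Nlrp4f and Nlrp4g: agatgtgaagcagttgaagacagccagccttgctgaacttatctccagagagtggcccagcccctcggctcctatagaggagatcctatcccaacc
Nlrp4f and Gm47180: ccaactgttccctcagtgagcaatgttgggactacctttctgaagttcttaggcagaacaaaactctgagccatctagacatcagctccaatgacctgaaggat

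The second set holds bases upstream of 4 annotated starts, with each CG dinucleotide in capitals, taken from the RefSeq windows (GRCm38.p6). It is limited to bases outside the GENCODE exons of the gene itself, and exons of other genes were not checked. For Ooep this leaves the bases before its GENCODE start, 137 bases away from the RefSeq start, with 2 of the 11 CG dinucleotides of the window. For Tle6 the RefSeq start lies 173 bases inside the gene as deposited, and the longest run outside its own exons is printed. That run lies within the gene, and it holds 3 of the 17 CG dinucleotides of the window and no CACGTG. Nlrp5 had next to no reads, Padi6 few, Tle6 a middle level, and Ooep the highest level of the set. The windows are chr7:23385639-23385888 on the + strand for Nlrp5, and on the - strand chr4:140742644-140742893 for Padi6, chr9:78378726-78378838 for Ooep, and chr10:81600901-81600978 for Tle6.

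Nlrp5: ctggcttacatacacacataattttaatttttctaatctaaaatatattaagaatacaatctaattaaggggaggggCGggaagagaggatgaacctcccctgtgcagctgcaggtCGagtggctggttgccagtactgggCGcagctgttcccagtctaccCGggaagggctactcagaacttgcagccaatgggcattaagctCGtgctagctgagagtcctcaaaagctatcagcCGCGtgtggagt
Padi6: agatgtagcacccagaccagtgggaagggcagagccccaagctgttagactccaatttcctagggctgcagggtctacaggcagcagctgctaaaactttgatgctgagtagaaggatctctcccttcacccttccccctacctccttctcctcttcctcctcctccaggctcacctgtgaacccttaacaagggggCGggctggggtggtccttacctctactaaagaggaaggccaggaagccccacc
Ooep: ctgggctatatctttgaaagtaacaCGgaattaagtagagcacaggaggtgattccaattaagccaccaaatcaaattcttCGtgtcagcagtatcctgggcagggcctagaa
Tle6: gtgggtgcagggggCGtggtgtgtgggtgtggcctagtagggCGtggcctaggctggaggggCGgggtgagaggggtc

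Counted over the whole 250 bases before the RefSeq start, Tle6 has 17 CG dinucleotides, Zbed3 13, Ooep 11, Nlrp5 7, Kpna7 3, Nlrp2 and Nlrp4f 2 each, Padi6 1, and Khdc3 0. These windows are not all promoter sequence. The longest run outside the exons of the gene was 0 bases for Nlrp4f, 78 for Tle6, 113 for Ooep, and 193 for Khdc3, so their counts include exonic bases. The median of all 32851 windows of this length is 6. The E-box letters CACGTG, which read the same on both strands, occur 2 times in the window of Tle6 and in that of no other member matched, against 6.0% of all windows. Nlrp14 had no entry among these windows, and the annotated start of Kpna7 lies 74394 bases from the end of its deposited row. The starts of Khdc3 and Zbed3 lie 562 and 412 bases from the 5' ends of their deposited rows, and the window of Khdc3 lies inside the gene. For Nlrp2 and Zbed3 the bases just after the RefSeq start were not found in any GENCODE transcript of the gene.

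Values are deposited log2 expression with the distributions of the libraries matched, and they are not divided by gene length. The estimated number of reads on genes was 20.7 to 39.7 Mreads in control libraries, 16.7 to 26.7 Mreads after Dppa2 knockdown, and 21.2 to 30.4 Mreads after Dppa4 knockdown. Read numbers up to 300 were inferred from the order of the values in a library, and totals are approximate. The targets went down as labelled at the mRNA level, to 0.09 of control for Dppa2 and 0.524 for Dppa4 (linear means). By the study's account each siRNA also lowered the protein of the other gene, so the knockdowns are not separate. Dppa2 had log2 values of 6.94 to 7.26 in control and 3.36 to 3.86 with its siRNA, and Dppa4 had 7.02 to 7.11 in control and 6.09 to 6.16 with its siRNA. Control C and control A lay at opposite ends of the main direction of spread within groups, which held 58.3% of that spread. Pluripotency was checked with 9 naive markers, of which none passed the test in either knockdown (0 by limma, in either direction). By limma 1.16% of all tested genes were raised and 2.27% lowered with Dppa2 siRNA, and 1.1% and 2.34% with Dppa4 siRNA. In these bulk libraries, fewer cells of a type and less RNA per cell cannot be told apart.

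A gene was tested if its log2 value was above -2 in at least 3 of the 9 libraries (14601 genes). A call needed an adjusted p below 0.05 in limma, and a high-confidence call also needed the intensity difference filter, which asks whether a change is large for genes of like expression. Of the 10 genes, 8 were tested, and Nlrp2 and Nlrp5 were not. At high confidence 1 member, Nlrp4f, was called raised after Dppa2 knockdown, where 0.377% of all tested genes were. After Dppa4 knockdown it was again Nlrp4f, where 0.37% of all tested genes were raised. None of the 8 was called lowered at high confidence in either knockdown (by limma alone 0 and 1), against 1.53% and 1.58% of all tested genes. With limma alone the raised gene was again Nlrp4f (1.16% and 1.1% of all tested genes were raised), none was lowered with Dppa2 siRNA (2.27% of all), and 1 gene, Nlrp14, was lowered with Dppa4 siRNA (2.34% of all).

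**Figure D1:**
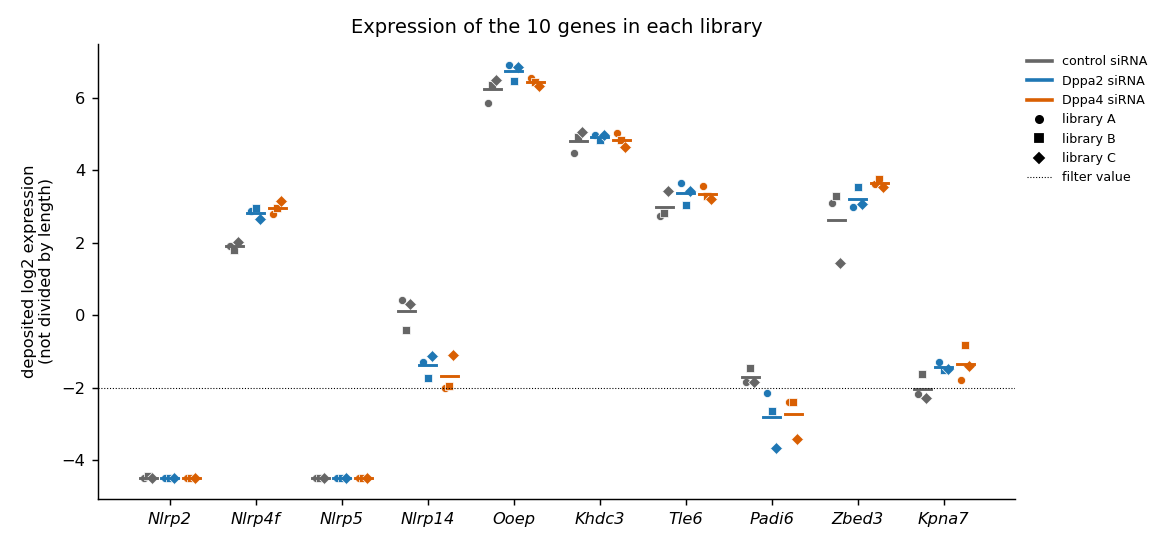
Deposited log2 expression of the 10 genes (vertical axis, not divided by length) in the 9 libraries, with the treatment in color, the library letter as the symbol, and the group mean as a bar. The dotted line is the filter value of -2. Nlrp4f sits higher in all 6 knockdown libraries than in the control libraries, Nlrp14 sits lower, and Nlrp2 and Nlrp5 lie at the bottom. Padi6 also sits lower, but it passed the filter through its control libraries alone.

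Nlrp4f encodes an NLRP protein of the oocyte and was the one member raised in both knockdowns (chr13:65177111-65205716, - strand, as deposited). Its log2 expression was 1.92, 1.81, and 2.03 in control libraries A, B, and C. After Dppa2 knockdown it was 2.88, 2.95, and 2.65, and after Dppa4 knockdown 2.80, 2.96, and 3.15. All 6 knockdown libraries lay above all 3 control libraries. The difference from control was 0.91 on the log2 scale for Dppa2 siRNA (SE 0.14, 95% interval 0.59 to 1.22, limma adjusted p = 0.00862) and 1.05 for Dppa4 siRNA (SE 0.14, 0.73 to 1.37, adjusted p = 0.00473). These are 1.87-fold and 2.07-fold. The inferred reads were 124, 195, and 101 in control, 249, 209, and 138 with Dppa2 siRNA, and 252, 297, and 248 with Dppa4 siRNA. Set against the estimated totals, this is 4.97 reads per Mreads in control (SD 0.12, n = 3), 9.36 after Dppa2 knockdown (SD 1.12), and 10.1 after Dppa4 knockdown (SD 1.52), or 1.89-fold and 2.02-fold without the matching of distributions. Without control B the difference with Dppa2 siRNA missed the limma threshold (adjusted p = 0.0572), and the high-confidence call was lost without control A, B, or C or Dppa2 B. With Dppa4 siRNA the limma call held without any 1 library, and the high-confidence call was lost without Dppa4 B.

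The relatives that share stretches with Nlrp4f are Nlrp4g, Nlrp4a, Gm47180, and Gm18775. Nlrp4g had 15, 4, and 3 reads in control, 3, 1, and 0 with Dppa2 siRNA, and 4, 2, and 2 with Dppa4 siRNA, and it was not tested. Nlrp4a, which shares a run of 52 bases, had 28 to 87 reads in control, 31 to 40 after Dppa2 knockdown, and 32 to 36 after Dppa4 knockdown, and its difference missed the threshold in both (limma adjusted p = 0.976 and 0.624). In no knockdown library did either exceed its range in control. Gm47180 and Gm18775, with a run of 67 bases, were not analysed here. The neighbors of Nlrp4f within 100 kb, Hiatl1 and Zfp369, differed from control by 0.14 and -0.03 with Dppa2 siRNA and by -0.17 and -0.08 with Dppa4 siRNA, and none of the differences passed (limma adjusted p = 0.933, 0.99, 0.838, and 0.939).

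The tested genes whose profile over the 9 libraries lay nearest to that of Nlrp4f were Sez6, Nfatc2, and Oprl1. Their distances, after each gene was centered on its own mean, were 0.33, 0.36, and 0.461, and Pearson's r was 0.977, 0.969, and 0.952, over libraries that share treatment and normalization. Nfatc2, which encodes a calcium-regulated transcription factor, rose by 0.90 and 0.99 (limma adjusted p = 0.00726 and 0.005). Sez6 differed by 0.97 and 1.12 (adjusted p = 0.0526 and 0.0288) and Oprl1, an opioid-like receptor gene, by 0.73 and 0.93 (adjusted p = 0.0979 and 0.0416).

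Nlrp14, a gene of the germ line with roles in fertilization and early embryos, went the other way (chr7:107166990-107198102, + strand). Expression on the log2 scale was 0.41, -0.41, and 0.32 in control libraries. It was -1.28, -1.72, and -1.13 with Dppa2 siRNA and -2.0, -1.95, and -1.08 with Dppa4 siRNA. No knockdown library reached the lowest control library. The difference was -1.49 for Dppa2 siRNA (SE 0.36, 95% interval -2.30 to -0.68), which missed the threshold (limma adjusted p = 0.063). For Dppa4 siRNA it was -1.79 (SE 0.36, -2.60 to -0.98), which passed limma (adjusted p = 0.0308). It missed the intensity difference filter, and so the high-confidence call. The counts behind these values are small, with 44, 44, and 33 reads in control, 11, 6, and 8 with Dppa2 siRNA, and 8, 8, and 10 with Dppa4 siRNA. Per estimated Mreads, Nlrp14 stood at 0.264 of its control level with Dppa2 siRNA and at 0.224 with Dppa4 siRNA, with no test on this scale. The call for Dppa4 siRNA was lost when any control library was left out (adjusted p = 0.123, 0.0577, and 0.0839 without A, B, and C), and also without Dppa2 A (0.054), Dppa2 C (0.0538), Dppa4 A (0.129), or Dppa4 B (0.139).

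The lower values of Nlrp14 came with those of a marker list that all but vanished. Of 12 genes listed as markers of 2C-like cells, a rare state of ESCs that transcribes genes of the two-cell embryo, 11 had a deposited row and all 11 were lowered at high confidence in both knockdowns. Their summed linear level was 83.9 to 94.6 in control, 0.759 to 1.48 after Dppa2 knockdown, and 1.06 to 1.26 after Dppa4 knockdown. None of the 11 was at 0 reads in every library, and 3 of them were at 0 in all Dppa2 siRNA libraries and 1 in all Dppa4 siRNA libraries. Apart from Zscan4c, Zscan4d, and Tmem92, the 11 passed the filter through their control libraries alone, so their direction was fixed by the filter. The part of these cells in the level of Nlrp14 or Padi6 was not tested.

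**Figure D2:**
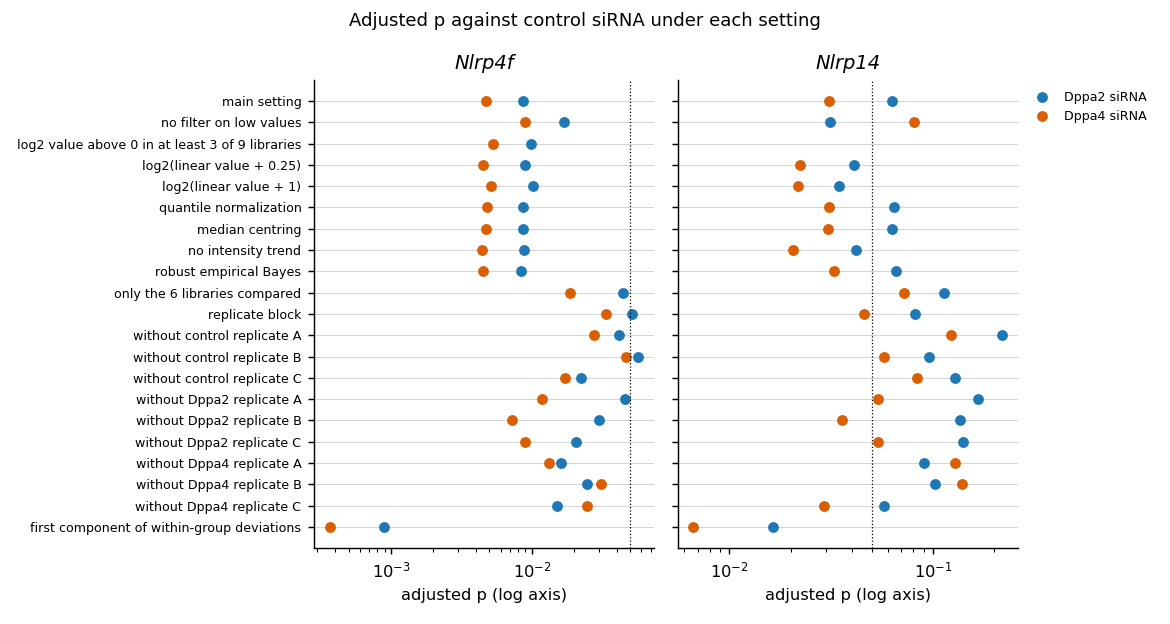
Adjusted p from limma for Nlrp4f (left) and Nlrp14 (right) against control siRNA, on a log axis, for Dppa2 siRNA and Dppa4 siRNA under the main setting and each alternative. The dotted line is at 0.05. With Dppa4 siRNA, Nlrp4f stays below the line at every setting shown, and Nlrp14 crosses it in both comparisons.

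Nlrp2 and Nlrp5, the other NLRP genes of the set, were close to unread. Nlrp2 (chr7:5298554-5351035, - strand) had 2 reads in control library B and 0 in the other 8 libraries. Nlrp5 (chr7:23385889-23441922, + strand), which encodes the central protein of the complex, had 1 read in the same library and 0 elsewhere. A count of 0 allows up to 3 reads, which correspond to log2 values between -4.35 and -2.42 depending on the library, for counting error only. No difference was detectable at this depth, and no fold is given.

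The other Nlrp genes offer a comparison within the family. Of 17 listed, 15 had a row and 5 were tested. By limma 1 of the 5 was lowered and 0 raised with Dppa2 siRNA, where 2.27% and 1.16% of all tested genes were. With Dppa4 siRNA 0 changed, where 2.34% of all were lowered and 1.1% raised. Median differences were -0.08 and -0.37, against 0.02 and 0.03 for all tested genes. The lowered gene was Nlrp4c, at -2.13 (SE 0.43, adjusted p = 0.0322), which had 23, 28, and 23 reads in control, 2, 4, and 3 with Dppa2 siRNA, and 11 in each Dppa4 siRNA library. With Dppa4 siRNA its difference was -0.68 (adjusted p = 0.486), and the call with Dppa2 siRNA did not reach high confidence and was lost in 8 of 9 fits that left out a library, all but that without Dppa2 B (adjusted p up to 0.132). Nlrp6, a gene of intestinal epithelium, differed by -0.86 and -1.22 (adjusted p = 0.241 and 0.0891). In each knockdown 4 of the 5 had a lower mean than control and 1, Nlrp12, a higher mean. Nlrp12 stood at 1.82-fold and 1.40-fold, was not called, and overlapped control in both, with 10, 24, and 7 reads in control. Nlrp1a, Nlrp1b, Nlrp4b, Nlrp4d, and Nlrp4e had 0 reads in all 9 libraries.

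Ooep encodes a KH-domain-like protein of the core of the complex, and it was the most abundant member (chr9:78376109-78378725, - strand). The log2 expression was 5.85, 6.36, and 6.49 in control, 6.91, 6.46, and 6.84 with Dppa2 siRNA, and 6.55, 6.44, and 6.31 with Dppa4 siRNA. Control A was the lowest library, and the groups overlapped. The difference was 0.50 with Dppa2 siRNA (SE 0.18, 95% interval 0.10 to 0.91, limma adjusted p = 0.206) and 0.20 with Dppa4 siRNA (SE 0.18, -0.21 to 0.61, adjusted p = 0.657). Its neighbor Dppa5a, a KH-domain gene of pluripotent cells 7932 bases away on the same strand, differed by 0.24 and 0.07 (adjusted p = 0.606 and 0.895).

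Khdc3 encodes a KH-domain partner of Ooep (chr9:73101836-73104443, + strand). Log2 expression was 4.47, 4.92, and 5.06 in control, 4.97, 4.82, and 4.97 with Dppa2 siRNA, and 5.04, 4.84, and 4.65 with Dppa4 siRNA. The groups overlapped, and the differences were 0.11 (SE 0.165, 95% interval -0.27 to 0.48) and 0.03 (SE 0.165, -0.34 to 0.40), with limma adjusted p of 0.897 and 0.966. These were the smallest differences of the 8 tested members. The sign turned without control A, to -0.07 and -0.145, and the value is uncertain in another way, because 34.1% of the 50-base stretches of Khdc3 also belong to Gm20509, which overlaps it on the same strand.

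Tle6 is a member of the Groucho family of corepressors that serves the complex in the egg (chr10:81590904-81601073, - strand). Its log2 expression was 2.73, 2.82, and 3.42 in control, 3.64, 3.03, and 3.43 with Dppa2 siRNA, and 3.56, 3.29, and 3.22 with Dppa4 siRNA. Control C overlapped both knockdowns. The differences were 0.38 (SE 0.22, 95% interval -0.11 to 0.87, limma adjusted p = 0.492) and 0.36 (SE 0.22, -0.13 to 0.86, adjusted p = 0.445). Tle2 lies 59 bases away on the opposite strand and differed by 0.65 and 0.73 (adjusted p = 0.192 and 0.123).

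Padi6, the maternal member of the peptidylarginine deiminases (chr4:140727355-140742643, - strand), was near the filter value. The log2 values were -1.85, -1.45, and -1.83 in control, -2.13, -2.65, and -3.65 with Dppa2 siRNA, and -2.38, -2.39, and -3.40 with Dppa4 siRNA. Every knockdown library lay below every control library. The differences of -1.10 (SE 0.50, 95% interval -2.23 to 0.02) and -1.02 (SE 0.50, -2.14 to 0.11) did not pass (limma adjusted p = 0.331 and 0.333). They rest on 10, 23, and 8 reads in control, 6, 3, and 1 with Dppa2 siRNA, and 6, 6, and 2 with Dppa4 siRNA, and Padi6 was tested only because all 3 control libraries passed the filter. Per estimated Mreads it stood at 0.316 and 0.362 of control.

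Zbed3, a zinc finger gene whose product joins the complex and lies beneath the membrane of the egg (chr13:95325237-95337841, + strand), had differences that rested on 1 control library. Expression, as log2, was 3.10, 3.30, and 1.45 in control, 2.98, 3.55, and 3.08 with Dppa2 siRNA, and 3.63, 3.76, and 3.54 with Dppa4 siRNA. Control C stood far below the other 8 libraries, with 68 reads where control A had 291. The Dppa4 siRNA libraries all lay above control. The differences were 0.59 (SE 0.42, 95% interval -0.37 to 1.54, limma adjusted p = 0.627) and 1.02 (SE 0.42, 0.07 to 1.98, adjusted p = 0.241). Without control C they were 0.00 and 0.44.

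Kpna7 encodes an importin alpha of eggs and early embryos that carries proteins into the nucleus (chr5:144983519-145084030, - strand). Its values on the log2 scale were -2.18, -1.62, and -2.29 in control, -1.28, -1.52, and -1.49 with Dppa2 siRNA, and -1.79, -0.83, and -1.39 with Dppa4 siRNA. The Dppa2 siRNA libraries lay above control and the Dppa4 siRNA libraries overlapped it. Of the control libraries only B was above the filter value of -2, so Kpna7 was tested through its knockdown libraries, which favored a higher value there. The differences were 0.60 (SE 0.35, 95% interval -0.18 to 1.38) and 0.69 (SE 0.35, -0.09 to 1.48), with limma adjusted p of 0.492 and 0.340. The inferred reads were 8, 21, and 6 in control, 11, 7, and 6 with Dppa2 siRNA, and 9, 17, and 8 with Dppa4 siRNA. Per estimated Mreads, Kpna7 had 0.383 reads in control (SD 0.13, n = 3), 0.374 with Dppa2 siRNA (SD 0.03), and 0.416 with Dppa4 siRNA (SD 0.13). With Dppa2 siRNA the ratio to control was 0.978 on this scale, against 1.52-fold in the deposited values.

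**Figure D3:**
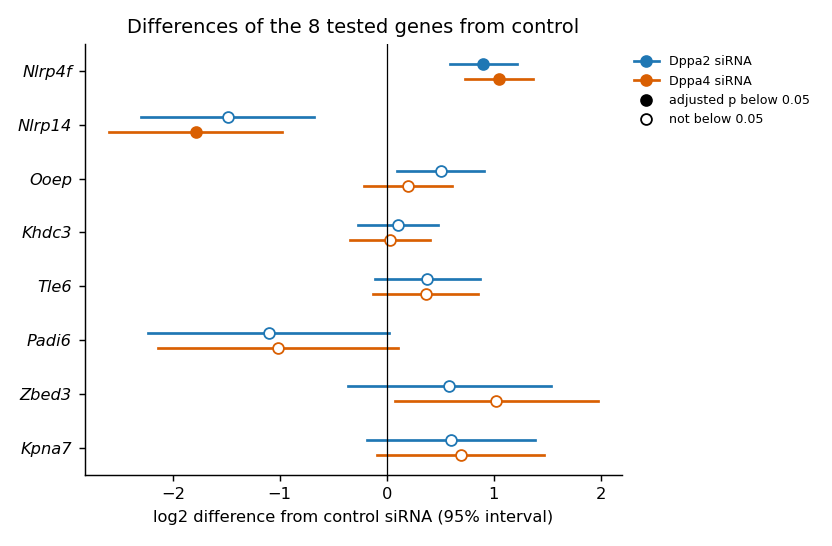
Difference from control siRNA on the log2 scale (horizontal axis) of the 8 tested genes, with 95% intervals, for Dppa2 siRNA and Dppa4 siRNA. Filled points passed an adjusted p of 0.05 in limma. Nlrp4f is to the right of 0 in both, and Nlrp14 and Padi6 to the left, with Nlrp14 filled for Dppa4 siRNA. Padi6 passed the filter through its control libraries alone, which fixed its side. Kpna7 passed it through its knockdown libraries, which favored its side.

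Across the 8 tested members, 6 had a higher mean and 2 a lower mean than control in each knockdown, and their median difference was 0.44 after Dppa2 knockdown and 0.28 after Dppa4 knockdown, against 0.02 and 0.03 for all tested genes. The 2 lower members were Nlrp14 and Padi6 in both. Padi6 passed the filter through its control libraries alone, so its part in these counts and medians was fixed by the filter. Kpna7 passed through its knockdown libraries, since control B was its only control library above -2, so the filter favored its higher place. Of the 8, 2 had libraries that all lay above control with Dppa2 siRNA (Nlrp4f and Kpna7) and 2 with Dppa4 siRNA (Nlrp4f and Zbed3), while 9.57% and 13.7% of all tested genes did. Per estimated Mreads the libraries of Kpna7 with Dppa2 siRNA overlapped control, and its mean was then not higher. Without control C, the difference of Zbed3 with Dppa2 siRNA was 0.00. Nlrp14 was below control in all libraries of each knockdown, as were 8.2% and 10.2% of all tested genes. Padi6 was too, but its lower place was fixed by the filter and is not counted here. Both knockdowns were compared with the same control libraries, so the likeness of these values partly reflects those 3 libraries. Nor are the knockdowns separate, since by the study's account each siRNA also lowered the protein of the other gene.

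Compared with each other, the knockdowns gave no call among the 8 members by limma, against 0.0205% of all tested genes in either direction, which is 3 genes, and 987 genes at an unadjusted p under 0.05. Of the members, none was at an unadjusted p under 0.05. The difference of Dppa4 siRNA from Dppa2 siRNA was 0.15 for Nlrp4f (95% interval -0.17 to 0.46, limma adjusted p = 0.929), -0.30 for Nlrp14 (-1.11 to 0.51, 0.961), and 0.44 for Zbed3 (-0.51 to 1.39, 0.928). For Ooep it was -0.30 (-0.71 to 0.10, adjusted p = 0.813). The others lay between -0.08 and 0.09. For Padi6, Nlrp14, and Zbed3 the interval (-1.04 to 1.21 for Padi6) reaches beyond 1 on the log2 scale, that is, 2-fold, in at least 1 direction.

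Divided by the length of their exons, the members kept a steep order. Ooep was highest in control, at 5.14 on the log2 scale per kilobase (range 4.76 to 5.39), followed by Khdc3 at 3.78 (3.43 to 4.02). Zbed3 (1.46, range 0.29 to 2.15) and Tle6 (1.36, 1.10 to 1.79) could not be ordered, because their ranges overlapped. Nlrp4f stood at -0.03 (-0.14 to 0.08), Nlrp14 at -1.71 (-2.23 to -1.41), Padi6 at -3.05 (-3.19 to -2.79), and Kpna7 at -3.68 (-3.94 to -3.27), with no overlap between neighbors. In both knockdowns Ooep and Khdc3 again led, Nlrp4f again came after Zbed3 and Tle6, and Kpna7 moved ahead of Nlrp14 and Padi6, and the 3 overlapped as neighbors in this new order. Nlrp2 and Nlrp5 lay at the lowest deposited value, where a level per kilobase reflects length alone.

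**Figure D4:**
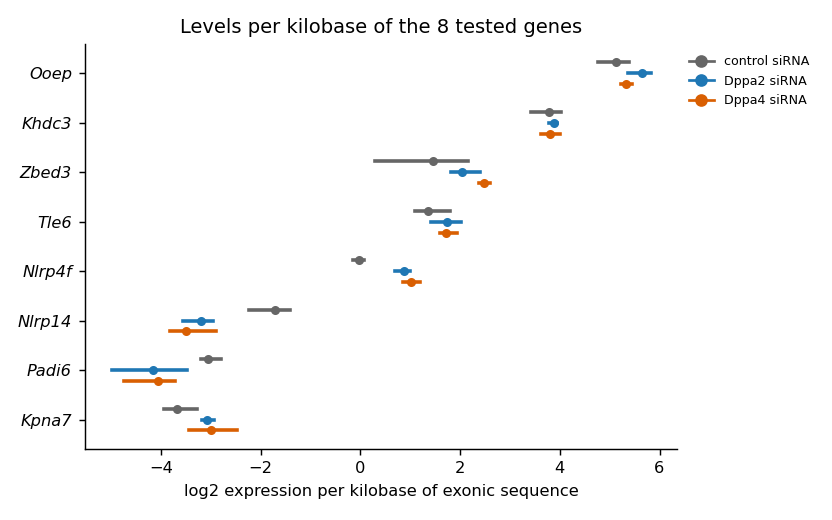
Log2 expression per kilobase of exonic sequence (horizontal axis) of the 8 tested genes, ordered by the control mean, with the mean as a point and the range of 3 libraries as a line. Ooep and Khdc3 lead in every treatment, and the shift of Nlrp4f to the right and Nlrp14 to the left is seen in both knockdowns.

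Relatives of the members outside the oocyte set were counted in the same way. Of 21 paralogues (4 KH-domain, 5 Tle, 4 Padi, 5 importin alpha, and 3 Zbed genes), 20 had a row and 16 were tested. With Dppa2 siRNA 1 was raised and 0 lowered by limma, where 1.16% and 2.27% of all tested genes were. With Dppa4 siRNA it was 0 and 1, against 1.1% and 2.34% of all tested genes. None was called at high confidence, and the medians were 0.02 and -0.04. The raised gene was Padi2, a widely used arginine deiminase, at 0.71 (SE 0.16, adjusted p = 0.0447) with Dppa2 siRNA and at 0.43 (adjusted p = 0.192) with Dppa4 siRNA. The lowered gene was the corepressor Tle1, at -0.37 (adjusted p = 0.0731) and -0.45 (SE 0.09, adjusted p = 0.0354). Each of these calls was lost in 8 of 9 fits that left out a library, all but that without Dppa2 B (adjusted p up to 0.156 for Padi2 and 0.159 for Tle1). The importin alpha genes gave medians of -0.04 and -0.17 over 5 tested genes.

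Other oocyte and maternal genes were mostly below the filter. Of 26 listed, 24 had a row and 7 were tested, and 1, Sohlh1, was lowered in each knockdown, with 0 raised. By limma 2.27% and 2.34% of all tested genes were lowered with Dppa2 siRNA and Dppa4 siRNA. Sohlh1, a transcription factor gene of early oocytes and spermatogonia, had 12, 27, and 23 reads in control and 0 in all 6 knockdown libraries. With a floor of 3 reads over a group it was at least 15.4-fold lower per Mreads with Dppa2 siRNA and at least 19.7-fold lower with Dppa4 siRNA. limma gave adjusted p = 0.00583 and 0.00622, with high confidence for Dppa4 siRNA but not for Dppa2 siRNA. Sohlh1 passed the filter through its control libraries alone, so its direction was fixed by the filter and the calls add no support. Without any 1 control library Sohlh1 was below the filter, and in the 6 fits without a knockdown library it kept both calls. The medians of the 7 were 0.10 and 0.07. Lhx8, Zp2, Oosp1, Btg4, Rfpl4, Omt2a, and Omt2b, which mark oocytes, had 0 reads in all 9 libraries. Other genes of the list were read in every library. In control, Tcl1 had log2 values of 6.01 to 6.48 and Zp3 of 2.58 to 3.69. Gdf9 had 15, 24, and 16 reads there, and Oas1d 16, 28, and 16. Dppa3 (stella) differed by -0.19 and -0.91 (limma adjusted p = 0.921 and 0.214).

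Of the 6 primitive endoderm markers, 5 were higher and 1, Lama1, lower than control in each knockdown, with median differences of 0.66 and 1.21 against 0.02 and 0.03 for all tested genes. They had summed linear levels of 55.7 to 70.9 in control, 62.0 to 65.5 after Dppa2 knockdown, and 63.5 to 67.3 after Dppa4 knockdown, sums that are mostly Lama1, a laminin gene. Of the 6 markers 2, Gata6 and Sox17, were raised by limma with Dppa4 siRNA, by 1.44 and 1.20 (adjusted p = 0.0132 and 0.0348), and none with Dppa2 siRNA. Of all tested genes, 1.1% were raised by limma with Dppa4 siRNA and 1.16% with Dppa2 siRNA. The 7 fibroblast markers summed to 8.75 to 10.3, 10.5 to 12.6, and 10.1 to 13.2, with Postn at 0 reads throughout. Only 3 of them were tested, with 2 higher and 1 lower with Dppa2 siRNA, and 3 and 0 with Dppa4 siRNA. Their median differences were 0.30 and 0.12. The 1 gene called was Pdgfrb, raised in both by 1.08 and 0.90 (limma adjusted p = 0.00718 and 0.0173). With Dppa4 siRNA the call of Gata6 was lost in 2 of 9 fits that left out a library (without Dppa4 A or B), that of Sox17 in 5 (control A or C, or any Dppa4 library), and that of Pdgfrb in 5 (control A or B, or any Dppa4 library), with adjusted p up to 0.076, 0.143, and 0.0851. Their part in the rise of Nlrp4f was not tested.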

How the data were processed

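RNA of 9 libraries (3 each with control, Dppa2, or Dppa4 siRNA) was measured. The authors trimmed reads with Trim Galore 0.4.5 (per the labels), aligned the trimmed reads with HISAT2 2.0.5 (GRCm38), counted them by strand over mRNA features in SeqMonk, matched the distributions of the libraries, and deposited log2 expression for 25965 genes. Columns mapped to no sample numbered 0.

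The members and gene lists were chosen with earlier results of these data known. Named genes were all members, the genes past limma in each other list (up to 4, or else up to 3 of the highest), the 3 profiles nearest to a member called in both knockdowns, and tested neighbors within 100 kb. Relatives sharing sequence with Nlrp4f, Nlrp6, Nlrp12, Dppa3, Tcl1, Zp3, Gdf9, Oas1d, Tle2, Kpna genes as a group, and genes at 0 reads were named after their values were seen. Khdc3 was matched by an older symbol that RefSeq lists as its synonym, and by place.

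Genes above -2 in at least 3 libraries (14601) were fitted with limma 3.58.1 in R 4.3.3 on all 9 libraries, with treatment as the only term and a variance trend, and p-values were adjusted over all tested genes (Benjamini-Hochberg). This was used because the deposited unit is log2, not counts. The intensity difference filter was rebuilt by comparing each gene with the 1% of genes closest to it in mean level, with a threshold of 0.05. The limma step and the inference of reads were tested on simulated data. Reads were inferred from the order of distinct values per library up to 300, and library totals by extending the linear relation seen from 300 to 700 reads. Floors cover counting error only. Other scales, filters, pseudocounts, fits, a replicate block, and leaving out each library were tried. Overlap of sequence was searched in GENCODE transcripts. Python 3.11.15, numpy 2.4.6, pandas 2.3.3, and matplotlib 3.10.9 were used.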

Additional observations from a re-analysis of the deposited data

How the results depend on the processing

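Nlrp4f kept its rise in both knockdowns, from 0.76 to 0.99 with Dppa2 siRNA and from 0.89 to 1.14 with Dppa4 siRNA over 20 alternatives. With Dppa4 siRNA it stayed past the limma threshold in all 20, and with Dppa2 siRNA in 18, the exceptions being the replicate block (limma adjusted p = 0.0518) and leaving out control B (0.0572). High-confidence calls were less steady. With Dppa2 siRNA, 0 members were called instead of 1 with no filter on low values, with log2(linear value + 1), with the replicate block, and with an adjusted intensity difference filter. With Dppa4 siRNA, 0 were called with no filter and with the adjusted filter, and 2 with limma alone. Leaving out single libraries gave 0 to 1 calls in each (0 without control A, B, or C or Dppa2 B for Dppa2 siRNA, and without Dppa4 B for Dppa4 siRNA), and 0 between the knockdowns throughout. Adding the first within-group component as a term, chosen after seeing the data, gave 2 calls in each knockdown and 1 between them (Ooep, adjusted p = 0.031). The cause was not tested. Same-letter libraries of different treatments correlated from -0.58 to 0.37 in their deviations, and those with unlike letters from -0.66 to 0.69. With 3 libraries per group and 1 dominant component, these values cannot show whether the letters pair the libraries. With the replicate block limma raised 33 genes with Dppa2 siRNA against 170, and 31 against 160 with Dppa4 siRNA.

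Nlrp14 passed with Dppa2 siRNA in 5 of 19 alternatives and with Dppa4 siRNA in 10 of 19, always lower than control. Of the 5, one is the fit with no filter, which called 8245 genes raised and 895 lowered, and one the added component, which called 1589 and 1338. When single libraries were left out, Khdc3 ranged from -0.069 to 0.23 (Dppa2 siRNA), from -0.145 to 0.15 (Dppa4 siRNA, -0.07 without Dppa4 A), and from -0.17 to 0.02 between the knockdowns. Between the knockdowns Tle6 ranged from -0.18 to 0.12 (0.12, 0.02, 0.02, and 0.05 without Dppa2 A, Dppa2 C, Dppa4 B, and Dppa4 C), Padi6 from -0.335 to 0.43 (-0.085 and -0.081 without Dppa4 A and B), and Kpna7 from -0.16 to 0.32. Per estimated Mreads, also chosen after seeing the data, Kpna7 turned to -0.032 with Dppa2 siRNA. Padi6 could not be tested without any 1 control library. Low values are limited by depth, since 3 reads stand for -4.35 in control B and -2.42 in Dppa2 C.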
